A study of Homo sapiens with 15 samples.

Results

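The genes described here make cholesterol or control its level in the cell. A fixed list of 36 symbols was searched in the gene tables, 34 were found, and 30 genes reached a normalised count of at least 10 in 3 or more libraries. These 30 genes stand among 19845 names in the tables, of which 10051 reach the same minimum. They comprised 18 enzymes of cholesterol synthesis, 5 genes of sterol sensing, 4 genes of sterol movement and storage, and 3 genes of liver X receptor (LXR) signalling and lipoprotein uptake. HSD17B7, NR1H3, APOE and LPL were found but did not reach the minimum, and SC4MOL and SC5D are other names of MSMO1 and SC5DL.

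Cells build cholesterol from acetyl-CoA through mevalonate, squalene and lanosterol. When membrane sterol falls, the escort protein SCAP carries the transcription factors SREBP1 and SREBP2 from the endoplasmic reticulum to the Golgi, where they are cut and released to switch on genes of synthesis and uptake. When sterol is plentiful, INSIG proteins hold SCAP in the endoplasmic reticulum, and LXR receptors, bound by oxidised sterols, switch on genes that limit uptake and favour export.

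RNA was sequenced in 15 libraries from HCC1954, a human breast cancer line that overexpresses HER2, and from cells derived from it. The groups were metachronous brain metastasis cells (M-BM, 4 libraries), latent or residual brain-tropic cells (Lat, 4 libraries), synchronous brain metastasis cells (S-BM, 4 libraries) and parental cells (Pa, 3 libraries). All groups had been grown in the same medium, called R3F in the labels, before RNA extraction, and no drug or genetic change is named for any of them. Every library descends from a single line, and separate cultures or animals are not named for the libraries of a group, so the p-values measure the spread between these libraries, which may be technical.

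Library depth was 13.3 to 21.8 M reads, and 3 reads correspond to a normalised count of 0.136 to 0.225. HER2 (ERBB2) stood at 353 and 367 normalised counts in S-BM 3 and S-BM 4, against 2801 to 5060 in the other 13 libraries, so the libraries labelled S-BM 3 and S-BM 4 stand apart from their HER2-positive label and are called HER2-low here. The closest pairs within the brain-derived groups were S-BM 3 and 4, and Lat 1 and 2 (chi-square per degree of freedom of 3.40 and 3.88, against 8.83 to 67.7 for the other pairs within M-BM, Lat and S-BM). The epithelial markers KRT8, KRT18 and EPCAM were present in all libraries, but not at even levels. KRT8 stood at 425 to 676 in M-BM, 486 to 597 in Lat, 999 to 1157 in S-BM and 1715 to 2058 in Pa, the same order of groups as for many of the genes described here. KRT18 stood at 1021 to 1495, 1166 to 1308, 1484 to 1869 and 1861 to 2105 in the same groups, and EPCAM at 167 to 229, 179 to 192, 186 to 278.5 and 214 to 280. The part of these markers' differences in the results was not tested. Of 10 brain markers 6 were in the tables, with summed levels of 102 to 156 in M-BM, 96.5 to 123 in Lat, 86.8 to 107 in S-BM and 116 to 117 in Pa. MBP made up most of these sums, while GFAP, AIF1, MOG and SNAP25 did not exceed 0.117 in any library. In bulk RNA, fewer cells that express a gene and less of its RNA per cell cannot be told apart.

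Promoters are shown first, for the sterol response element and for the CCAAT box, which the transcription factor NF-Y binds beside SREBP on many sterol-regulated promoters. The RefSeq promoter table (GRCh38.p14) held 27 of the 30 genes; ACAT2, FDFT1 and SQLE were not matched. The 250 bases before each start were searched on both strands. The 9-base core TCACNCCAC of the sterol response element matched in 1 of the 27 genes, SREBF2, against 1.09% of 27305 genes in the table. Exact matches alone were sought, so a gene without a match may still hold a variant of the element. CCAAT matched in 19 of 27, or 70.4%, including 13 of 15 synthesis enzymes, against 37% of all genes. GGGCGG, the GC box, matched in 26 of 27, against 46.2% of all genes, and CACGTG, the E-box, in 3 of 27, against 7.73%. The 27 genes had passed the minimum of expression, but the 27305 genes were not limited to expressed genes. The sets are thus unlike, and the part of expression in these shares was not tested. The stretches printed run 5′ to 3′ on the gene's strand. The capitals mark the sterol response element core in SREBF2 and CCAAT, or ATTGG on the other strand, elsewhere. The SREBF2 site lies at chr22:41832962-41832990 (+ strand), with the match 133 to 125 bases before the start, in a window that also holds annotated exons. The other 6 are exon-free stretches, chosen after the values were seen: 5 come from genes whose RNA was at least 2-fold lower in Lat than in S-BM, and NSDHL is shown for contrast, with 4 CCAAT matches, 2 of them overlapping, and no RNA change past the threshold. SREBF1 and VLDLR, which were also at least 2-fold lower in Lat, had no CCAAT in their windows. DHCR7 lies at chr11:71448436-71448643 (- strand), HMGCS1 at chr5:43313513-43313662 (- strand), INSIG1 at chr7:155297628-155297775 (+ strand), LSS at chr21:46228825-46229024 (- strand), MSMO1 at chr4:165327419-165327622 (+ strand) and NSDHL at chrX:152830813-152830966 (+ strand).
SREBF2: tgacgcgccaTCACCCCACgcaccgcttc
DHCR7: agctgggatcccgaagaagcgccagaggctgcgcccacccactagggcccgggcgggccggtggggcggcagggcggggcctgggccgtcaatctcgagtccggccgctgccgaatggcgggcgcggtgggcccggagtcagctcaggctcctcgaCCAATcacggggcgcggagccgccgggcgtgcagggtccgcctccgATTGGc
HMGCS1: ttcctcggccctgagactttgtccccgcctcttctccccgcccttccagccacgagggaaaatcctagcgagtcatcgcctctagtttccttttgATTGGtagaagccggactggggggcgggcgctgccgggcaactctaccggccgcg
INSIG1: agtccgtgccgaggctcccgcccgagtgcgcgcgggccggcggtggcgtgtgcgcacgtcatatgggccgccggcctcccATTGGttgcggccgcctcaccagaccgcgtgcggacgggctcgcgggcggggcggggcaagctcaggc
LSS: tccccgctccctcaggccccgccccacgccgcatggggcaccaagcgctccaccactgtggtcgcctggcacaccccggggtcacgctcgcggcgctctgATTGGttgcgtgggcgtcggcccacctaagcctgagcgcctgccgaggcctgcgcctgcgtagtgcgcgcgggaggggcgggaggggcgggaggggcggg
MSMO1: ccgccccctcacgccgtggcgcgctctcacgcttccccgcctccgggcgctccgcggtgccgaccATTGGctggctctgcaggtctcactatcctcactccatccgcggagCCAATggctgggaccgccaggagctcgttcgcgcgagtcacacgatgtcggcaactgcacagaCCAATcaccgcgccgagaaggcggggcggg
NSDHL: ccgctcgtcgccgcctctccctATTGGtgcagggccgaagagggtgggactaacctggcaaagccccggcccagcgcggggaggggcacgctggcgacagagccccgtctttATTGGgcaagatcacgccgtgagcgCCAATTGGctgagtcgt

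Against S-BM cells, much of the synthesis pathway and the SREBP control genes SREBF1, SCAP and INSIG1 were lower in both the M-BM and the Lat cells. Log2 fold changes and their standard errors (SE) come from limma on log2(normalised count + 1), which understates the change of low genes, with p-values adjusted by Benjamini-Hochberg over 9646 tested genes and a threshold of 0.05. Of the 30 genes 29 were tested, as TM7SF2 did not reach 10 in 4 of the 12 brain-derived libraries. In M-BM against S-BM, 15 of 29 genes were lower and 1 was higher, where 25.8% of all tested genes were lower and 26.9% higher. In Lat against S-BM, 19 of 29 were lower and 0 higher, where 29.4% of all tested genes were lower and 30.2% higher; 0 were higher at an unadjusted p under 0.05 as well, and by edgeR and DESeq2 on recovered reads. The median log2 fold change of the 29 genes was -0.37 in M-BM against S-BM and -0.49 in Lat against S-BM, where that of all tested genes was 0.01 in both. Fold changes of at least 2 downwards were found in 4 of 29 genes in M-BM (5.52% of all tested genes) and in 8 of 29 in Lat (7.66%). All 4 libraries lay under all 4 S-BM libraries for 12 of 29 genes in M-BM (22.8% of all tested genes) and for 16 of 29 in Lat (27.6%). The M-BM and Lat comparisons share the S-BM libraries. Without S-BM 3 and S-BM 4, 14 genes were lower and 1 higher in M-BM, where 21.9% of all tested genes were lower and 23.1% higher. In Lat, 15 were lower and 1 higher in that fit, where 25.6% of all tested genes were lower and 26.6% higher.

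**Figure D1:**
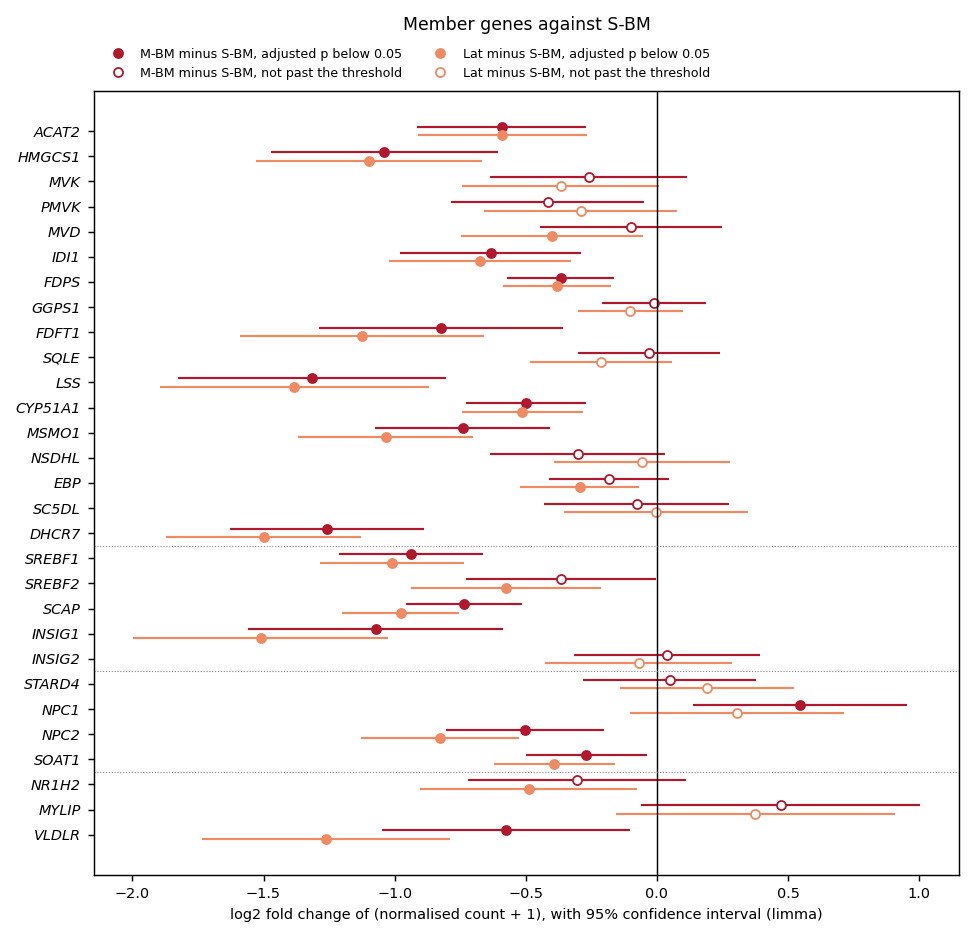
Log2 fold change of each tested gene against S-BM, with its 95% confidence interval from limma, for M-BM (dark red) and Lat (orange); filled points had an adjusted p below 0.05, and dotted lines part the enzymes, the sensing genes, the transport genes and the LXR and uptake genes. DHCR7, LSS and INSIG1 lie farthest to the left, and NPC1 is the filled point to the right of 0, in M-BM.

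The enzymes before squalene did not move evenly. Against S-BM, 25.8% of all tested genes were lower and 26.9% higher in M-BM, and 29.4% were lower and 30.2% higher in Lat. Of the 17 tested synthesis enzymes, 9 were lower in M-BM against S-BM and 11 in Lat against S-BM, with 0 higher in either, also at an unadjusted p under 0.05. Their median log2 fold changes were -0.42 and -0.40. HMGCS1, which joins acetyl-CoA to acetoacetyl-CoA at the head of the mevalonate pathway, had 306, 139, 192 and 245 normalised counts in M-BM 1 to 4, 219, 222, 181 and 193 in Lat 1 to 4, 338, 545, 446 and 439 in S-BM 1 to 4, and 577, 640 and 591 in Pa 1 to 3. All M-BM and Lat libraries were under all S-BM libraries, and these under all Pa libraries; M-BM 1 came nearest to S-BM. HMGCS1 was 2.06-fold lower in M-BM (log2 fold change -1.04, SE 0.20, adjusted p = 0.000741) and 2.14-fold lower in Lat (-1.10, SE 0.20, adjusted p = 0.000362) by limma. ACAT2, a cytosolic thiolase that makes the acetoacetyl-CoA used by HMGCS1, averaged 54.2 ± 8.09 in M-BM, 54.3 ± 8 in Lat, 82.8 ± 17.2 in S-BM and 129 ± 5.88 in Pa (SD, n = 4, 4, 4 and 3). It was 1.51-fold lower in M-BM (adjusted p = 0.00479, limma) and 1.505-fold lower in Lat (adjusted p = 0.004, limma). ACAT2 shares 33.9% of its exonic bases with SOD2-OT1, 26.5% with SOD2 and 9.24% with TCP1, all on the opposite strand. The library kit does not mark strand, so the level of ACAT2 is uncertain. HMGCS1 shares 14.95% of its exonic bases with the antisense gene AC114947.2.

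The kinases MVK and PMVK, which phosphorylate mevalonate in turn, did not pass the threshold in either comparison with all libraries. MVK averaged 11.8 ± 2.53 in M-BM, 10.8 ± 0.712 in Lat, 14.4 ± 3.18 in S-BM and 31.6 ± 0.960 in Pa. It passed as lower in both comparisons when S-BM 1 was left out (log2 fold change -0.42 in M-BM, adjusted p = 0.0405, and -0.53 in Lat, adjusted p = 0.0118, limma). PMVK averaged 10.7 ± 2.57, 11.7 ± 2.18, 14.3 ± 1.38 and 19.8 ± 3.88 in the same groups, with a log2 fold change of -0.42 in M-BM against S-BM (95% confidence interval -0.78 to -0.05, adjusted p = 0.0551, limma). PMVK passed as lower in M-BM when Lat 2, Lat 3 or M-BM 3 was left out (adjusted p = 0.0453, 0.0471 and 0.0194, limma). Both lay under every Pa library in M-BM and Lat. MVD, which decarboxylates the product to isopentenyl diphosphate, was lower in Lat (limma log2 fold change -0.40, SE 0.16, adjusted p = 0.0461) and overlapped S-BM, a call that 13 of 23 alternative settings did not keep; in M-BM it was at -0.10 (adjusted p = 0.629, limma). IDI1, the isomerase of isopentenyl diphosphate, was 1.55-fold lower in M-BM and 1.60-fold lower in Lat (adjusted p = 0.00479 and 0.00254, limma), with 80.9 to 106 and 68.1 to 107 normalised counts against 126 to 198 in S-BM. It shares 14.8% of its exonic bases with the antisense gene IDI2-AS1. FDPS, which makes farnesyl diphosphate, was 1.29-fold lower in M-BM and 1.30-fold lower in Lat (adjusted p = 0.00554 and 0.00359, limma), and every M-BM and Lat library was under every S-BM library; 18.6% of its exonic bases are shared with the antisense gene RUSC1-AS1. GGPS1 stands on the branch that leaves the sterol route for geranylgeranyl diphosphate. It averaged 85.1 ± 3.53 in M-BM, 79.8 ± 5.04 in Lat and 86.1 ± 10.4 in S-BM, with log2 fold changes of -0.01 in M-BM (95% confidence interval -0.21 to 0.19) and -0.10 in Lat (-0.30 to 0.10) that changed sign without S-BM 3 and S-BM 4 (0.11 in M-BM and 0.02 in Lat). It shares 37.3% of its exonic bases with TBCE on the same strand.

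From squalene to lanosterol, the genes past the threshold with all libraries stood on either side of SQLE. FDFT1, squalene synthase, commits farnesyl diphosphate to sterols. It had 93.2, 65.0, 64.1 and 73.4 normalised counts in M-BM 1 to 4, 61.3, 61.1, 38.0 and 85.0 in Lat 1 to 4, 97.6, 173, 130 and 130 in S-BM 1 to 4, and 203, 224 and 192 in Pa 1 to 3. M-BM and Lat overlapped each other and lay under all S-BM libraries, although M-BM 1 came close to S-BM 1. FDFT1 was 1.77-fold lower in M-BM (log2 fold change -0.82, SE 0.22, adjusted p = 0.006) and 2.18-fold lower in Lat (-1.13, SE 0.22, adjusted p = 0.000533) by limma. SQLE, squalene epoxidase, a rate-limiting step of the sterol branch, averaged 224 ± 17.9 in M-BM, 198 ± 25.1 in Lat, 230 ± 38.6 in S-BM and 359 ± 3.38 in Pa. M-BM and Lat libraries overlapped S-BM, and the log2 fold change was -0.03 in M-BM (95% confidence interval -0.30 to 0.24, adjusted p = 0.854) and -0.21 in Lat (-0.48 to 0.06, adjusted p = 0.158) by limma. SQLE passed as lower in Lat when S-BM 1 was left out (log2 fold change -0.31, adjusted p = 0.0459, limma).

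LSS folds squalene epoxide into lanosterol. Its normalised counts were 47.9, 32.2, 23.8 and 28.7 in M-BM 1 to 4, 33.5, 33.2, 19.9 and 39.3 in Lat 1 to 4, 55.9, 104, 86.6 and 86.2 in S-BM 1 to 4, and 145, 133 and 156 in Pa 1 to 3. Every M-BM and Lat library was under the lowest S-BM library, S-BM 1. LSS was 2.49-fold lower in M-BM (log2 fold change -1.32, SE 0.24, adjusted p = 0.000456) and 2.61-fold lower in Lat (-1.38, SE 0.24, adjusted p = 0.000225) by limma, and kept its call under all 23 alternative settings in both comparisons.

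The enzymes after lanosterol strip methyl groups and shift or reduce bonds of the sterol ring. CYP51A1, lanosterol demethylase, was 1.41-fold lower in M-BM and 1.43-fold lower in Lat (adjusted p = 0.00154 and 0.000971, limma), with 168 to 196 and 163 to 200 normalised counts against 221 to 309 in S-BM; 79.4% of its exonic bases are shared with the same-strand gene AC000120.2. TM7SF2, a sterol reductase, stood at 2.76 to 4.43 in M-BM, 2.41 to 3.78 in Lat, 7.05 to 10.5 in S-BM and 14.6 to 14.7 in Pa, so that no groups but M-BM and Lat overlapped. With the filter lowered to 1, TM7SF2 was 2.07-fold lower in M-BM (adjusted p = 0.000352, limma) and 2.40-fold lower in Lat (adjusted p = 5.63e-05, limma). MSMO1, a methylsterol monooxygenase, had 109, 100, 99.3 and 123 normalised counts in M-BM 1 to 4, 84.3, 87.0, 74.1 and 108 in Lat 1 to 4, 154, 255, 170 and 159 in S-BM 1 to 4, and 277, 289 and 265 in Pa 1 to 3. S-BM 2 stood far above the other S-BM libraries, and all M-BM and Lat libraries were under S-BM. MSMO1 was 1.67-fold lower in M-BM (log2 fold change -0.74, SE 0.16, adjusted p = 0.00134) and 2.05-fold lower in Lat (-1.03, SE 0.16, adjusted p = 7.26e-05) by limma.

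Of the later enzymes not all passed the threshold. NSDHL, a sterol dehydrogenase of the same demethylation steps, averaged 29.01 ± 3.93 in M-BM, 34.7 ± 6.69 in Lat and 36.3 ± 7.23 in S-BM and did not pass the threshold (log2 fold change -0.30 in M-BM, adjusted p = 0.117, and -0.06 in Lat, adjusted p = 0.763, limma). The M-BM value was -0.51 and passed (adjusted p = 0.0345) when the HER2-low libraries were left out. EBP, a sterol isomerase, was 1.23-fold lower in Lat (adjusted p = 0.0276, limma), overlapped S-BM and lost this call in 6 of 23 alternative settings, while in M-BM its log2 fold change was -0.18 (adjusted p = 0.162, limma). SC5DL, a sterol desaturase, averaged 81.99 ± 11.8 in M-BM, 86.6 ± 16.1 in Lat and 87.4 ± 20.4 in S-BM, with log2 fold changes of -0.08 in M-BM (95% confidence interval -0.43 to 0.27) and -0.004 in Lat (-0.36 to 0.35). DHCR7, which reduces the last ring bond to give cholesterol, had 51.8, 38.0, 33.6 and 42.5 normalised counts in M-BM 1 to 4, 37.8, 33.0, 25.4 and 44.6 in Lat 1 to 4, 84.7, 125, 97.3 and 94.5 in S-BM 1 to 4, and 153, 158 and 149 in Pa 1 to 3. M-BM and Lat overlapped each other and lay well under S-BM, which lay under Pa. DHCR7 was 2.39-fold lower in M-BM (log2 fold change -1.26, SE 0.17, adjusted p = 5.58e-05) and 2.83-fold lower in Lat (-1.50, SE 0.17, adjusted p = 7.86e-06) by limma.

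**Figure D2:**
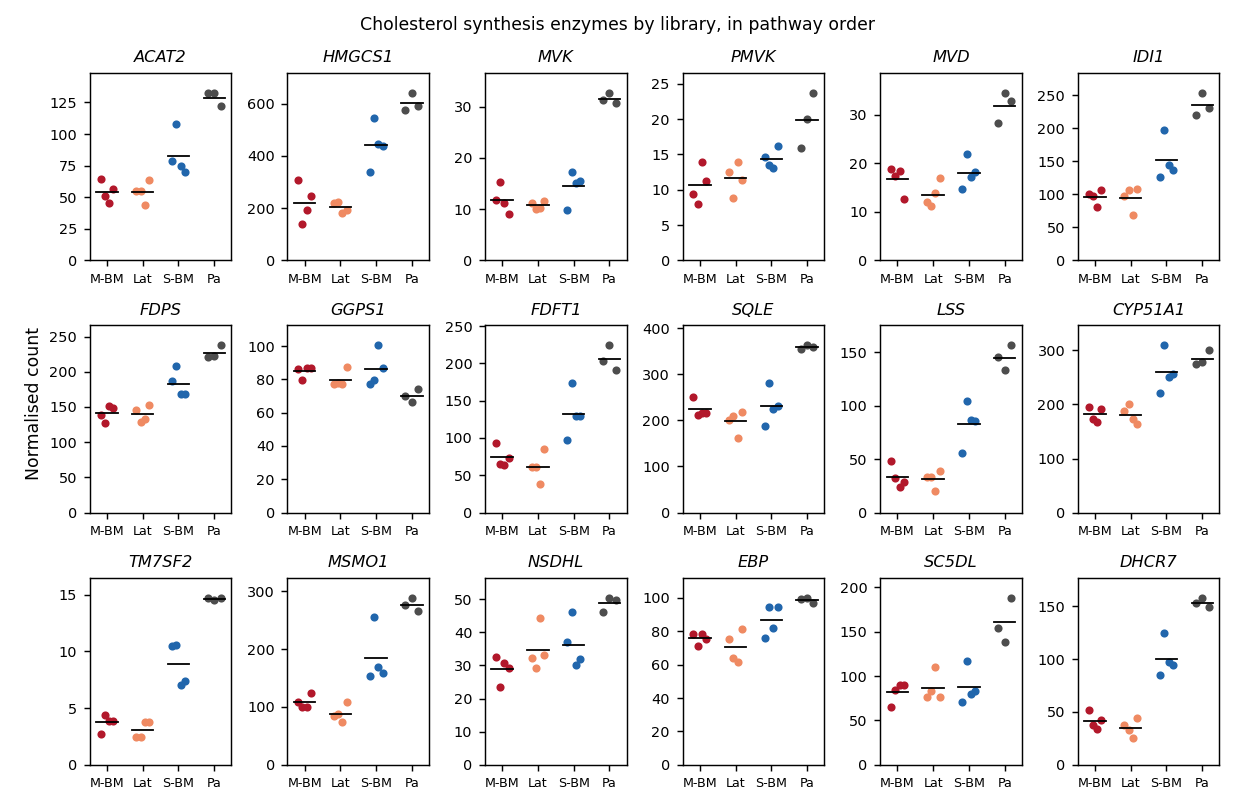
Normalised count of the 18 synthesis enzymes in each library, in pathway order; points are libraries, bars are group means, each panel has its own axis from 0, and Pa values were scaled from their own table. LSS and DHCR7 show M-BM and Lat apart from S-BM and S-BM apart from Pa, whereas in GGPS1 the 3 Pa libraries, at 66.3 to 74.4, lie under all others.

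Of the 5 sensing genes, 3 were lower in M-BM and 4 in Lat against S-BM, with 0 higher, and the list had median log2 fold changes of -0.74 and -0.98. Among all tested genes 25.8% were lower and 26.9% higher in M-BM, and 29.4% lower and 30.2% higher in Lat. SREBF1 encodes SREBP1, the SREBP that acts mainly on fatty acid genes. SREBF1 had 43.8, 44.2, 41.1 and 41.2 normalised counts in M-BM 1 to 4, 44.6, 39.3, 29.9 and 50.7 in Lat 1 to 4, 77.5, 83.8, 85.8 and 83.0 in S-BM 1 to 4, and 131, 133 and 147 in Pa 1 to 3. The libraries of M-BM and of S-BM lay close together within each group, far apart from each other, and Lat spread around M-BM. SREBF1 was 1.92-fold lower in M-BM (log2 fold change -0.94, SE 0.13, adjusted p = 5.2e-05) and 2.02-fold lower in Lat (-1.01, SE 0.13, adjusted p = 1.71e-05) by limma.

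SREBF2 encodes SREBP2, the SREBP that acts mainly on cholesterol genes, and carries the sterol response element core printed above. It had 75.8, 74.2, 59.3 and 59.6 normalised counts in M-BM 1 to 4, 61.5, 55.5, 40.1 and 80.4 in Lat 1 to 4, 74.9, 93.1, 90.9 and 87.9 in S-BM 1 to 4, and 94.0, 92.8 and 107 in Pa 1 to 3. M-BM 1 and Lat 4 lay above S-BM 1, so both groups overlapped S-BM. SREBF2 did not pass the threshold in M-BM (limma log2 fold change -0.37, SE 0.17, adjusted p = 0.0815), but did so when M-BM and S-BM were fitted without Lat (adjusted p = 0.0246). It was 1.49-fold lower in Lat (limma log2 fold change -0.58, SE 0.17, adjusted p = 0.00934), but leaving out the HER2-low libraries ended this call (adjusted p = 0.0605). SCAP, the sterol-sensing escort of the SREBPs, had 43.2, 38.7, 33.8 and 35.3 normalised counts in M-BM 1 to 4, 32.3, 28.7, 30.2 and 35.8 in Lat 1 to 4, 59.0, 59.2, 68.4 and 67.0 in S-BM 1 to 4, and 56.2, 61.6 and 55.0 in Pa 1 to 3. M-BM and Lat were clear of S-BM, while S-BM overlapped Pa. SCAP was 1.67-fold lower in M-BM (log2 fold change -0.74, SE 0.10, adjusted p = 6.34e-05) and 1.97-fold lower in Lat (-0.98, SE 0.10, adjusted p = 3.9e-06) by limma.

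INSIG1, which retains SCAP in the endoplasmic reticulum and is itself an SREBP target, had 39.2, 43.7, 33.0 and 47.2 normalised counts in M-BM 1 to 4, 28.6, 31.6, 27.3 and 31.1 in Lat 1 to 4, 74.5, 163, 65.2 and 69.4 in S-BM 1 to 4, and 144, 144 and 135 in Pa 1 to 3. S-BM 2 lay above all Pa libraries and the other S-BM libraries far under them, while all Lat libraries were under all M-BM libraries. INSIG1 was 2.10-fold lower in M-BM (log2 fold change -1.07, SE 0.23, adjusted p = 0.0014) and 2.85-fold lower in Lat (-1.51, SE 0.23, adjusted p = 7.21e-05) by limma. Without S-BM 2 these log2 fold changes were -0.77 in M-BM and -1.21 in Lat. INSIG2, its relative with the same role, had 47.1, 29.96, 44.5 and 42.7 normalised counts in M-BM 1 to 4, 39.4, 44.5, 26.8 and 41.8 in Lat 1 to 4, 38.7, 45.7, 36.1 and 37.6 in S-BM 1 to 4, and 48.4, 45.8 and 46.6 in Pa 1 to 3. The 3 brain-derived groups overlapped, and INSIG2 had log2 fold changes of 0.04 in M-BM (95% confidence interval -0.32 to 0.39) and -0.07 in Lat (-0.43 to 0.28), with signs that changed when single libraries were left out.

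**Figure D3:**
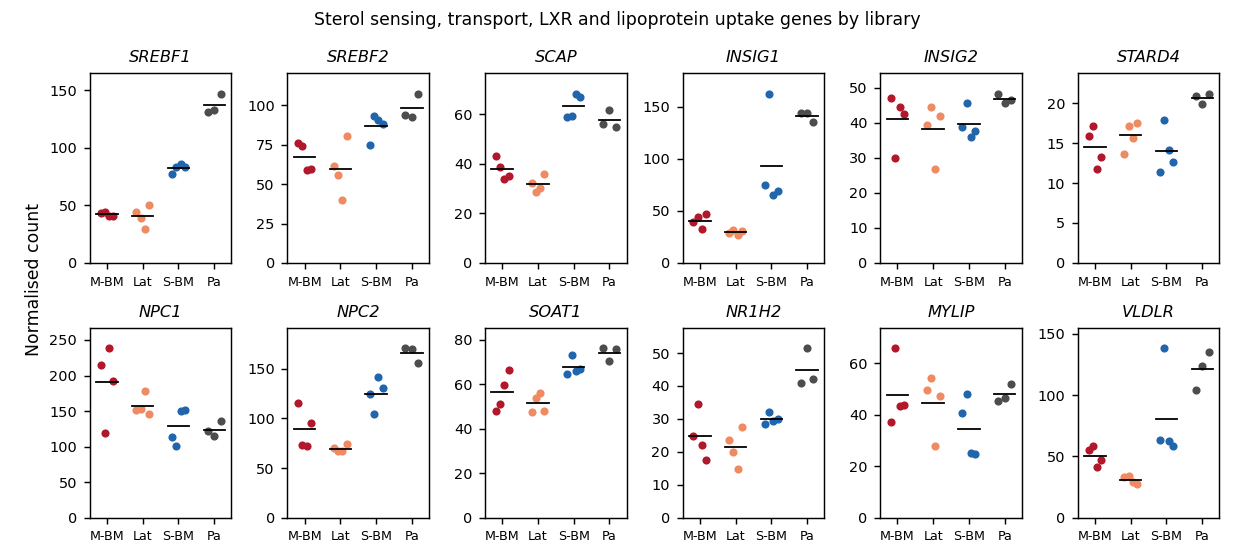
Normalised count of the 12 genes of sterol sensing, transport, LXR signalling and lipoprotein uptake in each library; points are libraries, bars are group means, each panel has its own axis from 0, and Pa values were scaled from their own table. In INSIG1 and VLDLR, S-BM 2 at 163 and 138 lies far above the other S-BM libraries.

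Genes of sterol movement and storage went both ways. NPC1, the lysosomal membrane protein that exports cholesterol from lysosomes, was the 1 gene of the 29 that passed the threshold as higher with all libraries. It did so in M-BM against S-BM only. It averaged 191 ± 51.5 in M-BM and 129 ± 25.7 in S-BM, 1.46-fold higher (limma log2 fold change 0.54, SE 0.19, adjusted p = 0.0272), although M-BM 2, at 119, lay inside the S-BM range. The call was lost in 6 of 23 alternative settings, with an adjusted p of 0.0699, 0.08, 0.0737, 0.0918 and 0.0544 when S-BM 1, S-BM 2, M-BM 1, M-BM 3 and M-BM 4 were left out in turn. In Lat NPC1 averaged 157 ± 14.5 (limma log2 fold change 0.30, adjusted p = 0.182), and among the alternatives it passed with the HER2-low libraries left out (0.55, adjusted p = 0.0478). NPC2, the soluble protein that hands cholesterol to NPC1 in the lysosome, fell: it averaged 89.2 ± 20.46 in M-BM, 69.6 ± 3.29 in Lat and 125 ± 15.8 in S-BM, and was 1.42-fold lower in M-BM and 1.78-fold lower in Lat (adjusted p = 0.00851 and 0.000194, limma). The M-BM call of NPC2 did not hold when the HER2-low libraries were left out (adjusted p = 0.093). SOAT1, which esterifies cholesterol for storage, was 1.31-fold lower in Lat, with 47.3 to 55.9 normalised counts against 64.7 to 73.2 in S-BM (adjusted p = 0.00622, limma). In M-BM SOAT1 was 1.205-fold lower (adjusted p = 0.0485, limma), a call that 17 of 23 alternative settings did not keep. STARD4, a cytosolic sterol carrier, averaged 14.5 ± 2.44 in M-BM, 16 ± 1.75 in Lat and 14.01 ± 2.8 in S-BM and passed in neither comparison.

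Of the 3 LXR and uptake genes, 1 was lower in M-BM and 2 were lower in Lat, where 25.8% and 29.4% of all tested genes were lower. VLDLR, the very low density lipoprotein receptor, had 55.1, 58.8, 41.5 and 46.9 normalised counts in M-BM 1 to 4, 33.1, 33.8, 29.04 and 27.6 in Lat 1 to 4, 63.4, 138, 62.3 and 58.5 in S-BM 1 to 4, and 104, 123 and 135 in Pa 1 to 3. Lat lay under every M-BM library, M-BM reached into the foot of the S-BM range, and S-BM 2 stood above Pa. VLDLR was 1.49-fold lower in M-BM (log2 fold change -0.58, SE 0.22, adjusted p = 0.0407) and 2.40-fold lower in Lat (-1.26, SE 0.22, adjusted p = 0.000247) by limma. The M-BM value was -0.29 (adjusted p = 0.0675) with S-BM 2 left out and -0.89 with the HER2-low libraries left out, and 8 of 23 alternative settings lost the call. NR1H2, the widely expressed LXR beta receptor, was 1.40-fold lower in Lat (adjusted p = 0.0415, limma), a call that 12 of 23 alternative settings did not keep, and did not pass in M-BM (limma log2 fold change -0.30, adjusted p = 0.2). MYLIP, an LXR-induced ubiquitin ligase that removes lipoprotein receptors, had 37.1, 65.8, 43.4 and 43.9 normalised counts in M-BM 1 to 4, 49.6, 54.3, 27.9 and 47.1 in Lat 1 to 4, 40.7, 47.9, 25.1 and 24.7 in S-BM 1 to 4, and 45.4, 46.7 and 51.9 in Pa 1 to 3. All groups overlapped, and S-BM 3 and S-BM 4 were the lowest libraries. Its log2 fold changes were 0.47 in M-BM (95% confidence interval -0.06 to 1.00, adjusted p = 0.124) and 0.38 in Lat (-0.16 to 0.91, adjusted p = 0.207) by limma. Without S-BM 3 and S-BM 4 these values were 0.07 in M-BM and -0.03 in Lat. MYLIP passed as higher in M-BM without S-BM 2 (0.64, adjusted p = 0.0435) and in Lat without Lat 3 (0.58, adjusted p = 0.046). Of the genes under the minimum, NR1H3, the LXR alpha receptor, did not exceed 5.7 and HSD17B7 10.6 in any library, APOE stayed at or under 1.17, and LPL was at 0 in all Lat, S-BM and Pa libraries.

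In M-BM against Lat 0 of 29 genes passed the threshold with limma, where 0.145% of all tested genes, 14 of 9646, passed. At an unadjusted p under 0.05 there were 3 of the 29 (SCAP, NPC2 and VLDLR), a share near that of all tested genes, 1049 of 9646. At the adjusted threshold, edgeR and DESeq2 on recovered reads also called 0. INSIG1 and VLDLR were higher in every M-BM library than in every Lat library, where 3.85% of all tested genes were, with log2 fold changes of 0.44 (SE 0.23, adjusted p = 0.514, limma) and 0.69 (SE 0.22, adjusted p = 0.275, limma). VLDLR passed in this comparison without S-BM 2, which enters through the shared estimate of the spread (adjusted p = 0.0284). SCAP had a log2 fold change of 0.24 (SE 0.10, adjusted p = 0.409, limma) and NPC2 of 0.33 (SE 0.14, adjusted p = 0.414, limma). Across the 29 genes the log2 fold changes ran from -0.24 to 0.69, with a median of 0.11, beside 0.01 for all tested genes.

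Levels in the parental cells were set beside these groups without a test, because Pa stands in a table normalised on its own; a factor of 1.03, the median ratio across 8021 genes, scaled the Pa values. Of the 30 genes, 26 were lower in every M-BM library than in every Pa library (35% of 10051 genes), 27 in Lat (38.2%) and 19 in S-BM (23.8%). GGPS1 was higher than Pa in all 3 groups and NPC1 in Lat, so that 1 of 30 genes was higher in M-BM (32% of 10051 genes), 2 in Lat (33.8%) and 1 in S-BM (19.6%). The median log2 ratio of group mean to Pa mean was -0.89 in M-BM, -0.97 in Lat and -0.57 in S-BM, beside -0.02, -0.04 and -0.03 over the 10051 genes. Of the 18 synthesis enzymes, 17 were lower in M-BM, 17 in Lat and 14 in S-BM.

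The level relative to Pa differed along the pathway. LSS stood at 22.8% of its Pa mean in M-BM, 21.7% in Lat and 57.4% in S-BM. DHCR7 stood at 27%, 22.9% and 65.4% in the same groups, and TM7SF2 at 25.5%, 21.1% and 60.4%. TM7SF2 reached 10 in 5 libraries only, those of Pa with S-BM 1 and S-BM 2, so its place under Pa follows in part from the minimum. It is among the genes counted above as lower than Pa in M-BM, Lat and S-BM. For these 3 enzymes and for HMGCS1, FDFT1, MSMO1, ACAT2, IDI1, FDPS and SREBF1, S-BM lay between Pa and the other brain-derived groups. MVK, SQLE and SC5DL were instead low in all 3 brain-derived groups. MVK stood at 37.5% in M-BM, 34.1% in Lat and 45.7% in S-BM, SQLE at 62.3%, 55.1% and 64.2%, and SC5DL at 51.1%, 53.96% and 54.5%. SCAP was at 65.5% in M-BM and 55.1% in Lat, while in S-BM it was at 110% and overlapped Pa. INSIG1 reached 28.9% in M-BM, 20.99% in Lat and 65.9% in S-BM, where S-BM 2 overlapped Pa. VLDLR gave 41.9%, 25.6% and 66.7% with the same overlap. NPC1 was at 154% in M-BM, where M-BM 2 overlapped Pa, at 127% in Lat and at 104% in S-BM.

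**Figure D4:**
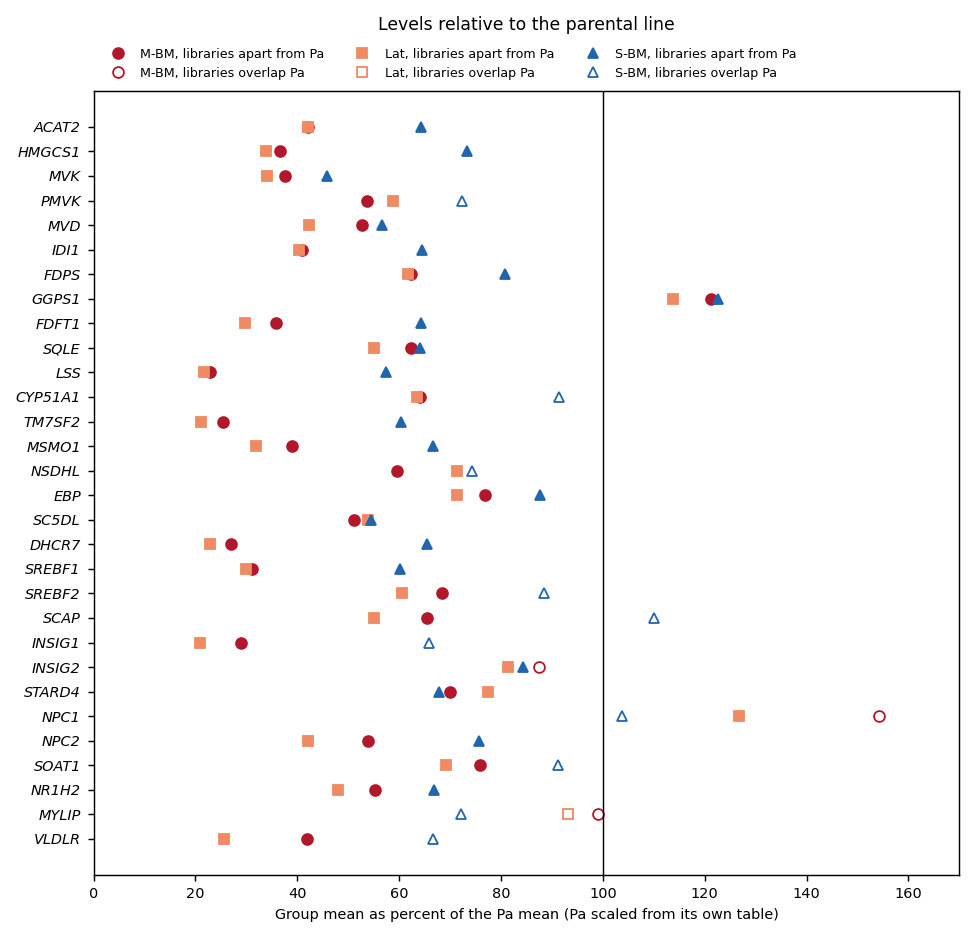
Group mean of each of the 30 genes as percent of the Pa mean, for M-BM (circles), Lat (squares) and S-BM (triangles); filled marks are groups with no library overlapping Pa, and the vertical line is 100%. LSS, DHCR7, TM7SF2 and INSIG1 lie between 20.99% and 28.9% in M-BM and Lat, and GGPS1 and NPC1 lie to the right of the line in those groups.

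Within S-BM, the enzymes were high together in S-BM 2 and low together in S-BM 1. S-BM 2 was the highest S-BM library for 14 of the 17 tested enzymes, as it was for 34.3% of all tested genes, and S-BM 1 was the lowest for 13 of 17, as for 21.8% of all tested genes. The median deviation of the 17 enzymes from the S-BM mean was 0.32 in S-BM 2 and -0.23 in S-BM 1 on the log2 scale, and -0.04 in S-BM 3 and -0.003 in S-BM 4, while that of all tested genes was between -0.01 and 0.01 in each. In Lat the enzymes were highest in Lat 4 for 12 of 17, as were 27.7% of all tested genes, and lowest in Lat 3 for 9 of 17, as were 41% of all tested genes (median deviations 0.15 and -0.16). In M-BM the highest library was M-BM 1 for 10 of 17 (median deviation 0.10), as for 29.2% of all tested genes. M-BM 2 and M-BM 3 were the lowest for 7 each, as for 31.3% and 18.1% of all tested genes. The counts for Lat 3 and M-BM 2 are near these background shares. Depth was 20.05 M reads in S-BM 2, 17.6 M in S-BM 1, 14.2 M in Lat 4 and 18.6 M in Lat 3. The part of depth in this spread was not tested.

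**Figure D5:**
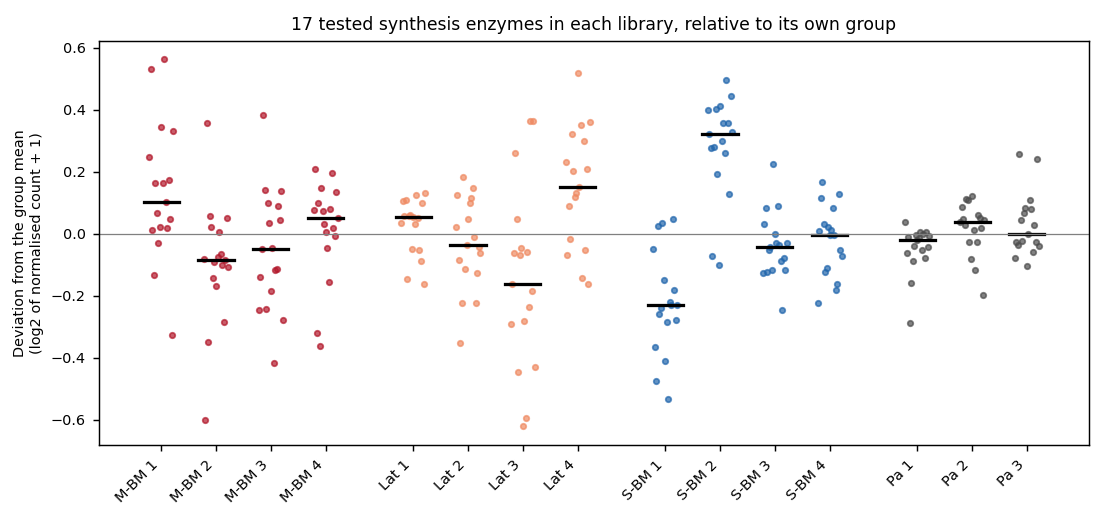
Deviation of the 17 tested synthesis enzymes from the mean of their own group in each library, on log2(normalised count + 1); points are enzymes and bars are medians. S-BM 2, with a median of 0.32, and S-BM 1, with -0.23, are the extremes of the 15 libraries.

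Neighbouring gene lists were read the same way, against the 25.8% of all tested genes that were lower and 26.9% that were higher in M-BM, and the 29.4% lower and 30.2% higher in Lat. Acetyl-CoA for the pathway comes from citrate, and of 4 supply genes 1 was higher and 2 were lower in M-BM and 2 higher and 2 lower in Lat. ACLY, which splits citrate to acetyl-CoA, averaged 132 ± 16.8 in M-BM, 110 ± 1.13 in Lat, 262 ± 55.4 in S-BM and 453 ± 22.2 in Pa. It was lower by a log2 fold change of -0.97 in M-BM and -1.23 in Lat (adjusted p = 4.16e-05 and 3.62e-06, limma). The citrate carrier SLC25A1 was lower as well (-0.55 and -0.79, adjusted p = 0.000757 and 2.8e-05, limma), and ACSS2, which makes acetyl-CoA from acetate, was higher (0.51 and 0.43, adjusted p = 0.00373 and 0.0086, limma). Among 10 tested genes that act on SREBP, INSIG or their turnover, 5 were higher and 1 lower in M-BM, and 4 higher and 1 lower in Lat. ERLIN1, an endoplasmic reticulum protein of the erlin complex, rose by 0.64 in M-BM and 0.92 in Lat (adjusted p = 0.00134 and 5.56e-05, limma). C12orf49, which supports the protease that cuts SREBP, fell by 0.38 in M-BM and 0.66 in Lat (adjusted p = 0.00636 and 9.01e-05, limma).

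Branches that use mevalonate products for prenylation, dolichol and ubiquinone had 3 of 15 genes higher and 3 lower in M-BM, and 2 higher and 5 lower in Lat, shares near or under those of all tested genes. SRD5A3, which reduces polyprenol to dolichol, averaged 23.7 ± 10.2 in M-BM, 17.96 ± 0.59 in Lat, 76.9 ± 6.01 in S-BM and 110.5 ± 27.6 in Pa, with log2 fold changes of -1.73 and -2.04 (adjusted p = 1.24e-05 and 1.84e-06, limma). PGGT1B, a subunit of a protein prenyltransferase, was lower (-0.97 and -1.11, adjusted p = 7.04e-05 and 1.43e-05, limma), and DOLPP1, a dolichyl diphosphate phosphatase, was higher (0.73 and 0.97, adjusted p = 7.3e-05 and 4.29e-06, limma). Of 11 further genes of sterol transfer and storage, 3 were higher and 4 lower in M-BM, and 4 higher and 4 lower in Lat, near the shares of all tested genes. LIPA, the lysosomal acid lipase that frees cholesterol from its esters, was lower (-1.01 and -1.31, adjusted p = 0.000283 and 2.26e-05, limma), as was GRAMD1A, a carrier of plasma membrane cholesterol to the endoplasmic reticulum (-0.98 and -1.29, adjusted p = 2.09e-05 and 1.2e-06, limma). STARD3, a lysosomal sterol transfer protein whose gene lies beside ERBB2, averaged 854 ± 135.5 in M-BM, 940.5 ± 81.7 in Lat and 368 ± 365 in S-BM, with log2 fold changes of 2.14 and 2.29 (adjusted p = 0.0202 and 0.0122, limma). These were 0.31 and 0.46 without both HER2-low libraries (adjusted p = 0.098 and 0.0186), the M-BM call was also lost without S-BM 3 (0.0646) or S-BM 4 (0.0653), and edgeR and DESeq2 called neither.

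Fatty acid genes and other genes listed as SREBP targets were split, with 2 of 7 higher, near the share of all tested genes, and 3 lower in both comparisons. SCD, the desaturase that makes oleate, averaged 377 ± 127 in M-BM, 274 ± 103 in Lat, 1371 ± 225 in S-BM and 2380 ± 324 in Pa (log2 fold changes -1.91 and -2.42, adjusted p = 0.000168 and 1.56e-05, limma). FADS1, a desaturase of polyunsaturated fatty acids, averaged 48.0 ± 9.12, 48.7 ± 4.46, 2.71 ± 0.908 and 14.9 ± 2.59 in the same groups (3.74 and 3.77, adjusted p = 6.96e-09 and 6.11e-09, limma). It passed the filter for testing only through its M-BM and Lat libraries. ELOVL6, an elongase of saturated fatty acids, was higher as well (1.73 and 1.42, adjusted p = 4.4e-07 and 1e-06, limma). Of the LXR target genes 2 of 6 could be tested and 1 was lower in each comparison, LPCAT3, a phospholipid acyltransferase (-0.94 and -1.09, adjusted p = 8.05e-05 and 1.54e-05, limma). Of 10 genes of oxysterol and related sterol metabolism 3 could be tested and 2 were lower in each comparison, HSD3B7 of bile acid synthesis (-1.13 and -1.38, adjusted p = 8.51e-05 and 9.66e-06, limma) and EBPL, a relative of EBP (-1.03 and -1.14, adjusted p = 5.09e-05 and 1.36e-05, limma). HSD3B7 averaged 7.29 in M-BM, 5.99 in Lat and 17.2 in S-BM, and reached the filter minimum of 10 only in S-BM. Its direction was thus fixed by the filter, and no conclusion is drawn from it. HSD3B7 could be fitted in 17 of 23 alternative settings, and not without S-BM 3 and S-BM 4. In M-BM against Lat 0 genes of these lists passed the threshold.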

How the data were processed

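Per the labels, libraries were made with a TruSeq RNA v2 kit, which does not mark strand, and the submitters' processing notes name Bowtie 0.12.2 and GRCh38. The sources used here do not give how reads were counted, annotated and normalised. Deposited per gene as signal values were the authors' normalized counts, in 1 table for M-BM, Lat and S-BM and another for Pa. In each column 100% of the values were whole multiples of 1 read within 0.05, so reads were recovered. Depth was 13.3 to 21.8 M reads per library, and floors of 3 reads cover counting error only.

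The 9646 genes tested had a value of 10 or more in 4 or more of the 12 M-BM, Lat and S-BM libraries. log2(value + 1) was fitted with limma 3.58.1 (R 4.3.3), a variance trend and 3 group means, and two-sided p-values were adjusted by Benjamini-Hochberg over all tested genes. On recovered reads, edgeR 4.0.16 called 5072, 5748 and 12 genes in M-BM against S-BM, Lat against S-BM and M-BM against Lat, DESeq2 1.42.0 called 5315, 5903 and 141, and limma on the deposited values 5084, 5754 and 14. Pa was scaled by the median ratio and not tested.

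The genes and lists were chosen with earlier results of these data known. All genes past the minimum are named. Values in every library are given for genes past the threshold with an absolute log2 fold change of at least 1 against S-BM and for SREBF1, SREBF2, SCAP, INSIG1, INSIG2 and MYLIP. In other lists, up to 3 genes with the largest change past the threshold in Lat are named. Exon overlaps were taken from GENCODE 29. Alternatives were other pseudocounts (0.1 and 5), a filter at 1, no filter, quantile normalization, fits of 2 groups, a replicate block, edgeR, DESeq2 and fits without single libraries, without S-BM 3 and S-BM 4, and, added after the closest pairs were seen, without S-BM 4 and Lat 2. Some genes of the pathway are not reported here.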

Additional observations from a re-analysis of the deposited data

Results flagged for a closer look

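In 6 of 90 groups of 4 libraries, a single library stood far from the other 3, with a gap to its nearest neighbour above Dixon's 95% critical value; chance gives about 1 in 20 such groups. In S-BM 2, MSMO1 was at 255 and the other S-BM libraries were at 154 to 170. INSIG1 was at 163 in S-BM 2, with 65.2 to 74.5 elsewhere in the group. VLDLR was at 138 in S-BM 2, with 58.5 to 63.4 elsewhere in the group. GGPS1 was at 79.8 in M-BM 2, with 86.4 to 87.1 in the remaining M-BM libraries. It was at 87.4 in Lat 4, with 77 to 77.7 in the remaining Lat libraries. SQLE was at 250 in M-BM 1, with 212 to 216 in the remaining M-BM libraries. Of these 6 values 3 belong to S-BM 2.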

How the results depend on the processing

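Over 23 alternatives, the number of the 29 genes past the threshold stayed within 1.5 times its value in both comparisons with S-BM. Leaving out single libraries gave 13 to 18 in M-BM against S-BM, 16 to 20 in Lat against S-BM, and 0 to 1 in M-BM against Lat, where VLDLR passed without S-BM 2. In these fits 45.4% to 55.1%, 53.6% to 60.1% and 0.0208% to 0.312% of all tested genes passed in the same comparisons. These counts take both directions together, so they do not by themselves set the 29 genes apart from all tested genes. Replicate numbers did not pair the libraries (correlations of same-numbered deviations of -0.272 to 0.319). A replicate block gave 17, 18 and 0 in the same 3 comparisons, where 51.9%, 58.8% and 0.135% of all tested genes passed. In M-BM against S-BM the block brought PMVK (lower, adjusted p = 0.0399) and MYLIP (higher, 0.0381) past the threshold and ended the call of SOAT1 (0.0548), and in Lat it ended that of MVD (0.0738). The counts were 16, 18 and 0 with edgeR, 16, 19 and 0 with DESeq2, 15, 17 and 0 with quantile normalization, and 15, 16 and 0 without S-BM 4 and Lat 2. In the same order of settings, 52.6%, 55.1%, 53% and 44.9% of all tested genes passed in M-BM against S-BM. In Lat against S-BM 59.6%, 61.2%, 59.7% and 49.8% passed. Signs turned in genes that had not passed the threshold, and the cause was not tested. Without S-BM 3 and S-BM 4 the log2 fold change was 0.11 for GGPS1 and -0.055 for INSIG2 in M-BM, and 0.022 for GGPS1 and -0.026 for MYLIP in Lat. Quantile normalization gave 0.032 for SC5DL in Lat. With single libraries left out, M-BM against S-BM ranged from -0.19 to 0.022 for MVD, -0.0604 to 0.065 for GGPS1, -0.13 to 0.069 for SQLE, -0.17 to 0.0705 for SC5DL, -0.032 to 0.18 for INSIG2 and -0.038 to 0.16 for STARD4. Lat against S-BM ranged from -0.18 to 0.061 for NSDHL, -0.12 to 0.14 for SC5DL and -0.15 to 0.087 for INSIG2. Beside Pa, 26 genes were lower in M-BM, 25 in Lat and 17 in S-BM after scaling to total reads, and 26, 27 and 18 with Pa as deposited. The share of all genes lower than Pa was taken only with Pa scaled by the median ratio. These counts therefore have no such share beside them. Having 4 libraries a group and a separate Pa table limits these comparisons.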
